A study of Drosophila melanogaster with 8 samples.

Results

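The cytochrome P450 genes of Drosophila melanogaster were followed in cells of the embryonic ventral nerve cord that lacked the transcription factor asense. Probes were taken when their annotated symbol began with Cyp and a digit, or was 1 of the 6 names phm, dib, sad, shd, spo or spok. That rule found 92 of the 14569 probes, under 89 gene symbols. Cyp1 and Cyp40 among them encode cyclophilins, which are peptidyl-prolyl isomerases that share only the abbreviation, and they were set aside. The remaining 87 P450 genes include 3 pseudogene entries. A value in at least 4 of 5 pairs of samples was required for testing, and 33 of the 87 had one.

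The mutant cells were ase1/ase1. Control cells, called wild type in the titles, carried ase1 over the balancer FM7-KrGFP, so both genotypes had at least 1 mutant copy and the control was heterozygous. Both came from neuroblasts and ganglion mother cells at embryonic stage 11 and 25 °C, with 50 to 100 cells lysed per sample and the cDNA amplified by PCR. The 8 two-colour arrays formed 5 mutant and control pairs, numbered 1, 3, 4, 5 and 6, of which pairs 1, 4 and 5 were hybridised on 2 arrays each, a and b. No label ties a pair to embryos of its own, and the p-values therefore reflect differences among 5 pairs that could be technical. Because the control carries a balancer, the genotypes differ along the X chromosome and not only at asense, and for X-linked genes the 2 differences cannot be told apart.

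Every value below is a log ratio of mutant over control, read as log2, averaged over arrays a and b of a pair where both had a value. The direction is likely rather than certain: asense itself was far below 0 on all 8 arrays, from -6.50 to -4.81, with the mutant in Cy5 on 3 arrays and in Cy3 on 5. The base of the logarithm is not given in the sources used here, and with a natural log all folds would be larger. Arrays held 8200 to 9276 measured probes, and an exact 0 was taken as not measured. Limma called 1517 of 8295 tested features, 578 higher and 939 lower, at a Benjamini-Hochberg adjusted p below 0.05. Neuroblast markers were measured, all 17 of 17, and 2 of them rose and 4 fell, asense included. In cells lysed in bulk, fewer cells of a type and less RNA per cell cannot be told apart.

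Cytochrome P450 enzymes are heme proteins that use molecular oxygen and electrons from a reductase or a ferredoxin to oxidise small lipophilic molecules. Insect P450 genes fall into the CYP2, CYP3, CYP4 and mitochondrial clans. The CYP2 and mitochondrial clans include the Halloween enzymes that make the moulting hormone ecdysone, while the CYP3 and CYP4 clans hold many enzymes of detoxification and fatty acid metabolism, often in tandem gene clusters. In the fly most are known from the fat body, gut, Malpighian tubules, oenocytes and endocrine glands, and few have a described role in neural stem cells.

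Most P450 genes were measured too rarely to be tested. Of the 87 genes, 31 had no value on any array, 23 had values in 1 to 3 pairs, 7 in 4 pairs and 26 in all 5. The tested share was 37.9%, against 60.0% of all 13819 features. By probe, 32 of the 92 (34.8%) were 0 on all 8 arrays, compared with 24.0% of all probes, and 21 (22.8%) had a value on all 8 arrays, compared with 48.5%. A log ratio carries no expression level, so a missing value says only that no ratio was given.

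By clan, tested genes numbered 12 of 32 in the CYP4 clan, 15 of 40 in CYP3, 4 of 11 in the mitochondrial clan and 2 of 4 in CYP2. None of the 4 Cyp28 genes was tested, and they had no value on any array. One family of mitochondrial detoxification enzymes, Cyp12, had 1 of its 7 genes tested, and Cyp313 had 1 of 6. In the Cyp4 family 11 of 22 were tested and in the Cyp6a subfamily 5 of 14. Both probes of Cyp4g15, a gene known for expression in the central nervous system, were without a value on every array.

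Limma called 7 of the 33 tested P450 genes, 2 higher and 5 lower in the mutant. That is 21.2%, against 18.3% of all features, and the higher and lower calls over all features were 6.97% and 11.3%. The P450 share was thus near the background, and the calls describe single genes rather than the superfamily. Log ratios of the 33 ran from -1.23 to 2.78 with a median of -0.06, next to -0.07 over all features, and 13 were above 0. The same sign in every measured pair was found for 12 of them (36.4%), and for 34.5% of all features. Spread was somewhat wider among P450 genes, with a median SD of 0.41 over pairs against 0.35 over all features.

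The 5 pairs did not place the P450 genes alike. Their median was -0.11 in pair 1, 0.22 in pair 3, 0.01 in pair 4, -0.47 in pair 5 and -0.02 in pair 6. Over all features the pair medians lay between -0.13 in pair 5 and -0.04 in pair 3. Pair 5 was therefore lowest and pair 3 highest in both, with a wider range for the P450 genes. The order is visible gene by gene in the plot of tested P450 genes. Centring each array on its measured values gave 3 higher and 2 lower P450 calls in place of 2 and 5, so the split between directions is not stable to that choice.

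**Figure D1:**
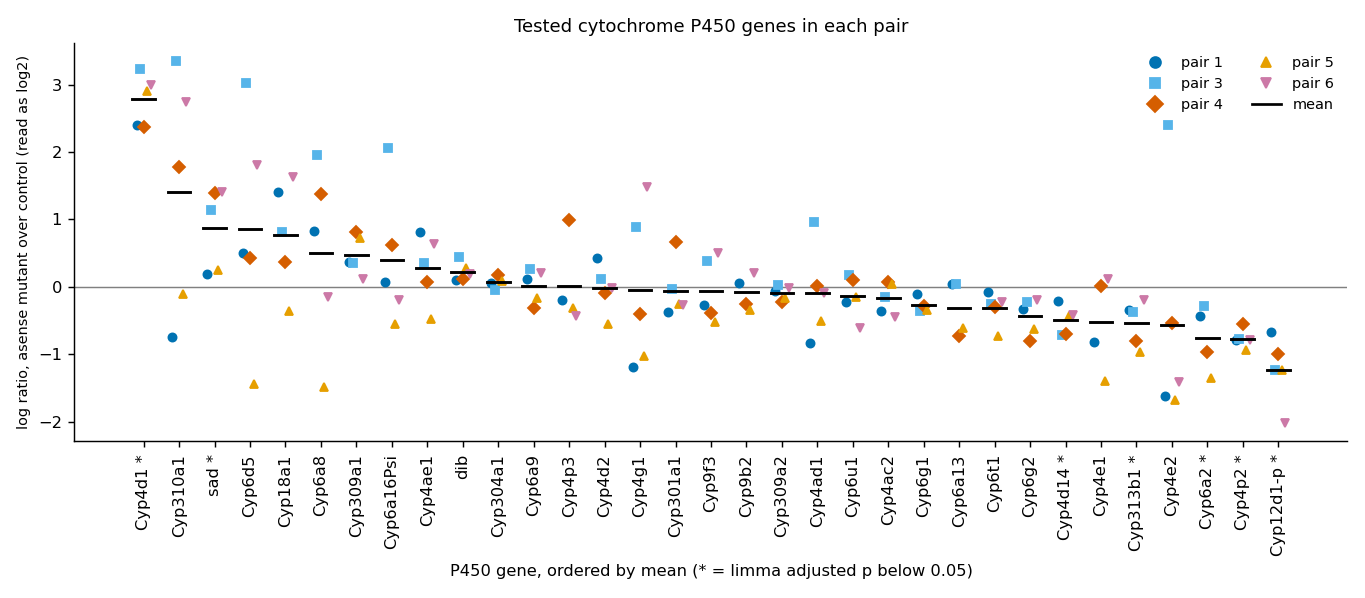
Log ratio of mutant over control (vertical axis, read as log2) of the 33 tested P450 genes, ordered by their mean, with 1 symbol per pair and a black bar at the mean. Asterisks mark the 7 genes past the limma test; the 5 values of Cyp4d1 lie between 2.38 and 3.24, and pairs 3 and 5 often lie at opposite ends for genes of wide spread such as Cyp6d5 and Cyp6a8.

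Cyp4d1 (gene ID 31188, X chromosome), a CYP4 clan enzyme with no described role in neuroblasts, had a mean far above those of the other tested P450 genes. Its log ratio was 2.40 in pair 1, 3.24 in pair 3, 2.38 in pair 4, 2.91 in pair 5 and 2.99 in pair 6. All 5 pairs were high, and the lowest of them was above the pair values of every other tested Cyp4 gene except the 2.39 of Cyp4e2 in pair 3. Outside that family Cyp310a1 reached 3.35 in pair 3 and 2.75 in pair 6, and Cyp6d5 reached 3.02 in pair 3. The mean of Cyp4d1 was 2.78 ± 0.38 (SD, n = 5, limma adjusted p = 1.71e-04), with a 95% interval of 2.41 to 3.16, or 6.89-fold in mutant over control cells. Cyp4d1 ranked 4 from the highest among the 8295 features. Its SD was unremarkable, at the percentile of 56.9 among all features.

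Array by array, Cyp4d1 was also far above 0. Pair 1 gave 2.64 on array a and 2.17 on array b, pair 5 gave 3.14 and 2.68, and pair 4 gave 1.34 and 3.41, while the single arrays of pairs 3 and 6 gave 3.24 and 2.99. Array a of pair 4 was the lowest. Cyp4d1 has 2 probes, and the second was measured on that array alone, at -0.44, where the first probe read 3.12. The first probe on its own averaged 2.96 ± 0.35 (SD, n = 5 pairs, limma adjusted p = 9.37e-05). With exact zeros kept as measured values of 0, the second probe lowered the log ratio of the gene to 1.46 (limma adjusted p = 0.0165). By dye orientation the values were alike, with a mean of 2.68 where Cy5 carried the mutant cDNA and 2.71 where Cy3 did. Leaving out any 1 of the 5 pairs kept the call, with log ratios of 2.67 to 2.89.

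The other 10 tested Cyp4 genes did not share this shift. Their means ran from -0.77 to 0.28 with a median of -0.13. Of the 10, 2 fell and 0 rose (20%, against 18.3% of all features called). Cyp4p2 (gene ID 35946, 2R), a member of a small tandem cluster, was at -0.79 in pair 1, -0.78 in pair 3, -0.56 in pair 4, -0.93 in pair 5 and -0.78 in pair 6. All 5 pairs were below 0 and close together, and the mean was -0.77 ± 0.13 (SD, n = 5, limma adjusted p = 0.00655). Its single arrays were less even, with 0.08 on array a of pair 4 and -1.19 on array b, and with array a of each pair only the call was lost (-0.75, limma adjusted p = 0.0762).

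Cyp4d14 (gene ID 45706, X chromosome) is the tested Cyp4d gene nearest to Cyp4d1 in gene order. It was at -0.21 in pair 1, -0.71 in pair 3, -0.70 in pair 4, -0.43 in pair 5 and -0.42 in pair 6, all below 0. The mean was -0.49 ± 0.21 (SD, n = 5, limma adjusted p = 0.0346). This call was weak: it was lost without each of the 5 pairs in turn, with limma adjusted p between 0.0539 and 0.108, and also after centring (0.0665), centring with scaling (0.0779), with a dye term (0.0620) and with exact zeros kept (0.108). Cyp4d2 (-0.02) and Cyp4ae1 (0.28), which lie beside Cyp4d14, did not pass.

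Several Cyp4 genes varied too widely between pairs for a mean near 0 to be informative. Cyp4e2 had -1.61 in pair 1, 2.39 in pair 3, -0.54 in pair 4, -1.68 in pair 5 and -1.42 in pair 6. Pair 3 alone was above 0, and the mean of -0.57 ± 1.72 (SD, n = 5) did not pass (limma adjusted p = 0.492). Without pair 3 the mean was -1.31 and passed (limma adjusted p = 0.0173). Cyp4g1, the oenocyte enzyme that makes cuticular hydrocarbons, was also split, with 1.48 in pair 6 and 0.89 in pair 3 against -1.18, -0.41 and -1.03 in pairs 1, 4 and 5. Its mean was -0.05 ± 1.18 (SD, n = 5, limma adjusted p = 0.940). The remaining means were -0.52 for Cyp4e1, -0.17 for Cyp4ac2, -0.09 for Cyp4ad1 and 0.01 for Cyp4p3, none past the test.

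**Figure D2:**
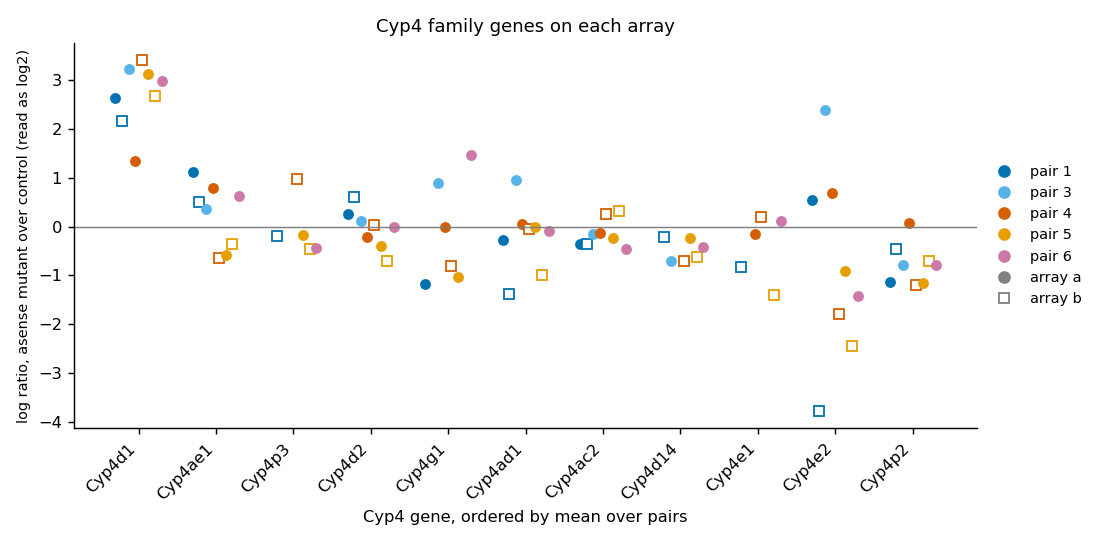
Log ratio of mutant over control (vertical axis, read as log2) of the 11 tested Cyp4 genes on each array that measured them, coloured by pair, with filled circles for array a and open squares for array b. Cyp4d1 is above 1 on all 8 arrays, while the other Cyp4 genes scatter around or below 0, and Cyp4e2 runs from -3.77 to 2.39.

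Among the remaining CYP4 clan genes 1 of the 10 that lie outside the Cyp4 family was tested. Cyp313b1 (gene ID 41019, 3R), from a family of little described function, was at -0.35 in pair 1, -0.38 in pair 3, -0.80 in pair 4, -0.97 in pair 5 and -0.19 in pair 6. It was below 0 throughout but near 0 in pair 6. The mean was -0.54 ± 0.33 (SD, n = 5, limma adjusted p = 0.0447). Leaving out any 1 of pairs 1, 3, 4 and 5 ended the call, with limma adjusted p up to 0.145. So did centring (0.0609), centring with scaling (0.0652), a dye term (0.0733), trend and robust moderation (0.0509), either set of repeat arrays alone (0.279 and 0.0723) and exact zeros kept (0.138), by limma adjusted p. Exact zeros left the mean of Cyp313b1 at -0.54, and only the set of features in the fit differed.

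The genes around Cyp4d1 on the X chromosome were compared because tandem P450 genes often share a neighbourhood. In gene order of the Release 6 plus ISO1 MT annotation, all 8 genes within 4 positions on either side were tested, and 3 of them passed. The gene Pgd, which encodes a pentose phosphate enzyme, rose (0.56), while CG3630 (-0.97) and Cyp4d14 (-0.49) fell. The immediate neighbours were wapl, a cohesin release factor, at 0.07 ± 0.46 and CG3630 at -0.97 ± 0.47 (SD, n = 5 each). Neighbouring log ratios thus ran from -0.97 to 0.56, and no neighbour came near the 2.78 of Cyp4d1. Over the whole X chromosome 183 of 1116 tested features were called (16.4%), and 2 of the 7 tested X-linked P450 genes were.

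**Figure D3:**
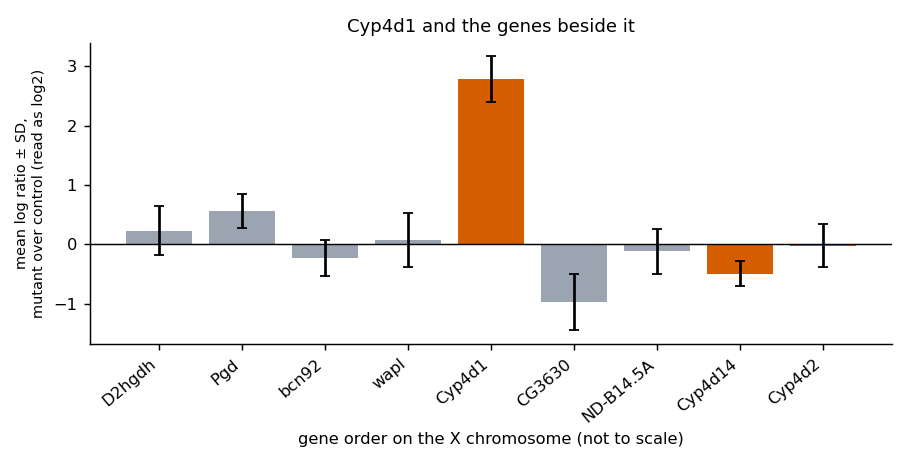
Mean log ratio of mutant over control (vertical axis, read as log2) with SD over pairs for Cyp4d1 and the 8 tested genes around it. Genes stand in order along the X chromosome, not to scale. P450 genes are orange, whether or not they passed the test. Cyp4d1 at 2.78 stands alone, and the neighbours lie between -0.97 and 0.56.

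Tandem clusters were looked at in the same way. Of 86 P450 genes placed in order, 48 lay in 17 clusters with at most 1 other gene between members, and 6 clusters had 2 or more tested genes. No cluster held more than 1 call, so the directions of calls could not be compared within a cluster. Means had 1 sign in 3 of the 6. Cyp4d1 and Cyp4d14, called in opposite directions, were not in the same cluster, since CG3630 and ND-B14.5A lie between them. In the Cyp4p cluster Cyp4p2 fell while Cyp4p3 was at 0.01. In the cluster of Cyp4ad1, Cyp4e2 and Cyp4e1 none passed and the means were -0.09, -0.57 and -0.52. Cyp6g1, known for insecticide resistance, and its neighbour Cyp6g2 were both below 0 without passing, at -0.27 and -0.44 (limma adjusted p = 0.192 and 0.0633). Cyp309a1 was above 0 in all 5 pairs, at 0.48 ± 0.28 (SD, n = 5, limma adjusted p = 0.0518), next to -0.09 for Cyp309a2. Arrays a and b of Cyp309a1 differed, at -0.37 and 1.99 in pair 4 and at -0.01 and 1.47 in pair 5. With arrays centred Cyp309a1 passed (0.56, limma adjusted p = 0.0373), and with array a only it did not (0.16, limma adjusted p = 0.615). It passed in 5 of 18 alternatives. The largest cluster, 9 genes around Cyp6a8 and Cyp6a9, had 2 tested members, and neither passed.

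The CYP3 clan, which holds most inducible detoxification enzymes, had 15 tested genes, of which 1 fell and 0 rose (6.67%, against 18.3% of all features). That gene was Cyp6a2 (gene ID 35587, 2R), known for its induction by xenobiotics and its link to insecticide resistance. It was at -0.43 in pair 1, -0.29 in pair 3, -0.96 in pair 4 and -1.35 in pair 5, and was not measured in pair 6. The 4 values were below 0, furthest in pair 5, with a mean of -0.76 ± 0.49 (SD, n = 4, limma adjusted p = 0.0471). The call was lost without pair 1, 3, 4 or 5, and with centring (0.0564), array a only (0.105), trend and robust moderation (0.0589), a minimum of 3 pairs (0.0514) or exact zeros kept (0.298), by limma adjusted p. Cyp6a2 was also 1 of 2 P450 genes with an unadjusted p below 0.05 for the dye term, and limma called 0 of 33 P450 genes and 0 of 8295 features for that term.

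Of the 6 P450 genes with the highest means, 4 did not pass, and each had at least 1 pair below 0. Cyp310a1 had -0.75 in pair 1, 3.35 in pair 3, 1.78 in pair 4, -0.10 in pair 5 and 2.75 in pair 6. Values were high in pairs 3, 4 and 6 and not in pairs 1 and 5, and the mean was 1.41 ± 1.78 (SD, n = 5, limma adjusted p = 0.121). Cyp6d5 was likewise at 3.02 in pair 3 and -1.44 in pair 5, with a mean of 0.86 ± 1.67. Cyp6a8 was at 1.95 in pair 3 and -1.48 in pair 5, with a mean of 0.50 ± 1.35 (n = 5 each, limma adjusted p = 0.285 for Cyp6d5 and 0.447 for Cyp6a8). By SD, Cyp310a1 stood at the percentile of 99.7, Cyp4e2 at 99.6 and Cyp6d5 at 99.5 among all features.

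Those wide spreads appeared between arrays of the same pair as well. In pair 1 Cyp6d5 read 2.87 on array a and -1.88 on array b, Cyp310a1 0.65 and -2.15, and Cyp4e2 0.55 and -3.77. These repeats of 1 pair thus had opposite signs. The median size of the difference between arrays a and b over P450 genes was 0.47 in pair 1, 0.80 in pair 4 and 0.51 in pair 5, beside 0.45, 0.57 and 0.44 over all features. Above the 95th percentile of all features lay 4 of 25 P450 genes in pair 1, 6 of 26 in pair 4 and 3 of 24 in pair 5. Across all probes the arrays of a pair correlated at 0.282 to 0.413, no higher than the 0.278 to 0.615 of arrays from different pairs. These are correlations across genes, which are not independent replicates.

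**Figure D4:**
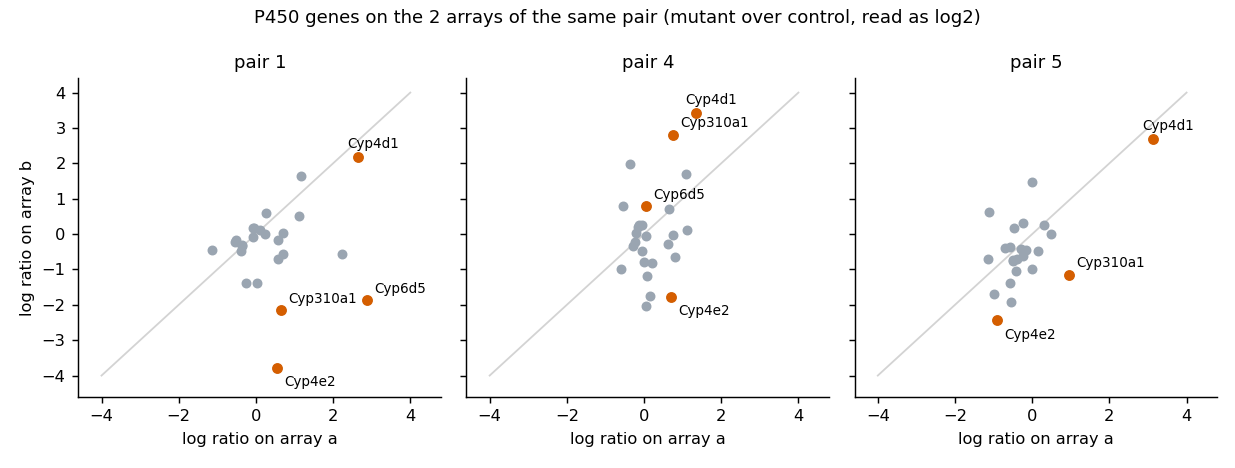
Log ratio of mutant over control (read as log2) on array b (vertical axis) against array a (horizontal axis) for the tested P450 genes in pairs 1, 4 and 5, with the line of equality in grey. Cyp4d1 is high on both arrays of each pair, while Cyp6d5, Cyp310a1 and Cyp4e2 fall far from the line in pair 1.

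The mitochondrial clan had 4 tested genes, of which 1 rose and 1 fell. Among all features 18.3% were called, 6.97% higher and 11.3% lower. Cyp12d1-p (gene ID 246648, 2R), an inducible enzyme linked to insecticide resistance, was at -0.68 in pair 1, -1.23 in pair 3, -0.99 in pair 4, -1.24 in pair 5 and -2.03 in pair 6. All 5 pairs were below 0, with a mean of -1.23 ± 0.50 (SD, n = 5, limma adjusted p = 0.00728), or 2.35-fold lower in the mutant. Array a was near 0 in pairs 1 and 4 (0.03 and 0.06) where array b was at -1.38 and -2.04. With array a of each pair only the call was lost (-0.74, limma adjusted p = 0.202). Exact zeros kept left the mean at -1.23, since the gene was measured on all 8 arrays. That fit took in all 13819 features and called 2.50% of them, with a limma adjusted p of 0.0667 for Cyp12d1-p. A near-identical tandem copy, Cyp12d1-d, was measured on 2 arrays, at -0.22 and -0.66. Probe sequences were not used here, so signal of the 2 copies may be shared. Cyp301a1, an enzyme of cuticle formation, was at -0.05.

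The Halloween genes sad and dib, both for mitochondrial enzymes of late ecdysone synthesis, had probes under their names, and the other 4 names of the rule were not among the probe symbols. Shadow (sad, gene ID 44858, 3R) was at 0.20 in pair 1, 1.13 in pair 3, 1.39 in pair 4, 0.25 in pair 5 and 1.41 in pair 6. It was above 0 in all pairs, high in pairs 3, 4 and 6 and low in pairs 1 and 5. The mean was 0.88 ± 0.61 (SD, n = 5, limma adjusted p = 0.0323), or 1.84-fold in the mutant. Leaving out pair 3, 4 or 6 ended the call, with limma adjusted p of 0.0872, 0.104 and 0.0786. So did a dye term (0.0620), array b of pairs 1, 4 and 5 (0.0841) and exact zeros kept (0.168), by the same limma adjusted p. Exact zeros left the mean of sad at 0.88, and only the set of features in the fit differed. Disembodied (dib, gene ID 45282, 3L) was above 0 in all 5 pairs, between 0.11 and 0.44, with a mean of 0.23 ± 0.14 that did not pass (SD, n = 5, limma adjusted p = 0.201).

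In the CYP2 clan 2 of 4 genes were tested and neither passed. Cyp18a1, the enzyme that inactivates ecdysteroids, was at 1.40 in pair 1, 0.81 in pair 3, 0.36 in pair 4, -0.36 in pair 5 and 1.63 in pair 6. It was above 0 in 4 pairs and below in pair 5, with a mean of 0.77 ± 0.80 (SD, n = 5, limma adjusted p = 0.0895). Without pair 5 it passed at 1.05 (limma adjusted p = 0.0437). Cyp18a1 has 2 probes, and the second had values on 2 arrays only, -0.37 on array a of pair 5 and -0.85 on array b of pair 4. The first probe on its own averaged 0.86 ± 0.75 (SD, n = 5 pairs, limma adjusted p = 0.0561). Cyp304a1 was at 0.07 in the 4 pairs that measured it.

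Around the ecdysteroid P450 genes, other genes of hormone supply and response were examined from lists. Of 5 tested supply genes that are not P450 members, 1 rose (20%, against 18.3% of all features called), namely shroud (sro). This gene encodes a short-chain dehydrogenase and is itself a Halloween gene. It was at 0.71 in pair 1, 0.38 in pair 3, 2.55 in pair 4, 0.66 in pair 5 and 2.81 in pair 6, above 0 in each and much higher in pairs 4 and 6. The mean was 1.42 ± 1.16 (SD, n = 5, limma adjusted p = 0.0401), and the call was lost without pair 1, 4, 5 or 6, with array a only (0.91, limma adjusted p = 0.305) and with exact zeros kept. Exact zeros left the mean of sro at 1.42, and only the set of features in the fit differed. The others, Start1 (0.37), Fdx1 (0.25), Ptth (0.09) and Npc1a (-0.30), did not pass.

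Of 6 tested ecdysone response genes 1 rose and 1 fell, while 18.3% of all features were called, 6.97% higher and 11.3% lower. ImpL2, an ecdysone-inducible gene for a secreted insulin-binding protein, averaged 1.26 ± 0.55 (SD, n = 5, limma adjusted p = 0.00816) and was above 0 in every pair. Its call was lost with array a only (1.11, limma adjusted p = 0.0517) and with exact zeros kept (0.84, 0.0761). Hr3, a nuclear receptor of the ecdysone cascade, averaged -0.53 ± 0.15 (SD, n = 4, limma adjusted p = 0.0411), and lost the call without pair 1, 3, 4 or 5, after centring, with a dye term, with trend and robust moderation and with exact zeros kept. The nuclear receptor subunit usp (-0.18), the zinc finger gene br (-0.61), Hr39 (-0.31) and ImpE3 (-0.40) did not pass. Limma called 0 of 3 juvenile hormone genes, with adjusted p between 0.127 and 0.892 and 1 at an unadjusted p below 0.05.

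**Figure D5:**
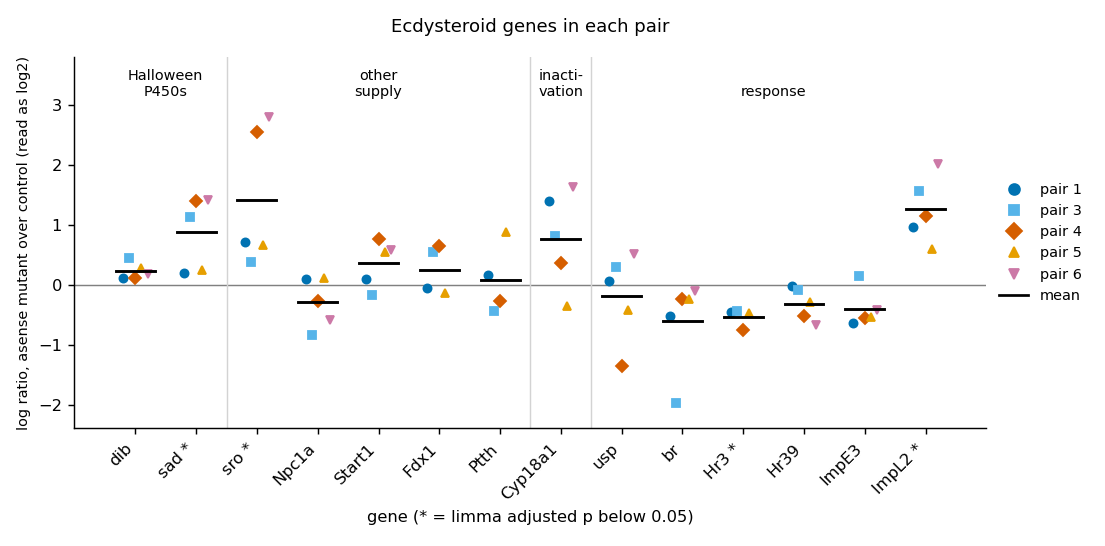
Log ratio of mutant over control (vertical axis, read as log2) of tested ecdysteroid genes in each pair, with a black bar at the mean and an asterisk for genes past the limma test. From left to right stand the Halloween P450 genes, other supply genes, the inactivating enzyme and response genes; sad and sro are highest in pairs 4 and 6, and ImpL2 is above 0 in all 5 pairs.

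Partners of P450 enzymes moved in both directions. Of 9 tested genes for electron donors and heme synthesis 3 rose and 1 fell. Over all features 6.97% were called higher and 11.3% lower. The mitochondrial ferredoxin gene Fdx2 (0.55), the gene Alas for the first enzyme of heme synthesis (0.57) and Urod (0.51), further along that route, rose, and the heme synthesis gene Pbgs (-0.57) fell. The calls of Alas and Pbgs were lost without each of the 5 pairs in turn, that of Fdx2 without pair 1, 4 or 5, and that of Urod without pair 1, 4, 5 or 6. Cpr, the reductase that serves microsomal P450 enzymes, and dare, the reductase of the mitochondrial ones, had no probe under those symbols.

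Regulators of xenobiotic response and other detoxification enzymes were taken from the same lists. Of 4 regulators 2 rose, namely maf-S (1.19 ± 0.35, SD, n = 5, limma adjusted p = 0.00402), a small Maf partner in oxidative stress response, and tgo (0.67), the common partner of bHLH-PAS factors. The call of tgo was lost without pair 1, 3, 4 or 5. Of 18 tested glutathione transferase genes limma called 0, with 6 at an unadjusted p below 0.05, means from -1.24 to 0.96 and a median of 0.11. Of 10 UDP-glycosyltransferase genes Ugt49C1 (0.54) rose and Ugt35A1 (-0.61) fell. The first lost its call without each of the 5 pairs in turn, and the second without pair 3, 4, 5 or 6. Over all these lists 11 of 54 tested genes that are no P450 members were called (20.4%), in total near the 18.3% of all features. By direction 8 were higher and 3 lower. Over all features the order was the reverse, with 6.97% called higher and 11.3% lower.

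Markers of tissues known for P450 expression were measured in part. Of 5 tested oenocyte markers 3 fell, salm (-0.96), svp (-0.96) and Desat1 (-1.28), while Cyp4g1 and FASN3 did not pass. Over all features 18.3% were called, 11.3% lower. The call of salm was lost without pair 4 and with array a only, and that of svp with array b of pairs 1, 4 and 5 (-0.60, limma adjusted p = 0.212). With exact zeros kept, salm, svp and Desat1 each lost the call, though the means of salm and Desat1 were unchanged in that fit over more features. Limma called 0 of 4 fat body markers (median -0.38, 0 at an unadjusted p below 0.05) and 0 of 7 Malpighian tubule markers (median -0.01, 1 at an unadjusted p below 0.05). Of 5 gut markers 1 rose and 2 fell, and of 5 tracheal markers 1 fell. Of 6 ectoderm markers crb (0.52) and pyd (0.72) rose, but the call of crb was lost without pair 1, 4, 5 or 6 and that of pyd without pair 5. Of 8 hemocyte markers 2 rose and 3 fell, of 4 mesoderm markers 2 fell, and of 5 glia markers 3 fell. The gene gcm (-3.77) fell and counts in both the hemocyte and the glia list. Their part in the P450 log ratios was not tested.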

How the data were processed

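RNA of mutant and control cells was compared on 8 two-colour arrays. The authors deposited 1 log ratio per probe and array, read here as log2. For its base, normalization, scaling and centring, the sources used here name nothing. Log ratios reached a size of 7.43, more than the 4.82 possible in log10 with a 16-bit scan. Exact zeros (36.3% to 43.7% of an array) counted as not measured. Without them, array medians ran from -0.18 to -0.02. Precision is limited by the number of arrays. The design text counts 8 samples per genotype, but 5 source names occur per genotype, so the replicate was the pair.

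Probes were named through a platform annotation, in which 12657 had 1 symbol, 96 several and 1816 none. Gene order and chromosome arms come from the RefSeq table of Release 6 plus ISO1 MT, and Cyp6a16Psi was not matched there. A gene's value on an array was the mean of its measured probes, averaged then over arrays a and b of a pair. Features with at least 4 pairs were tested in limma 3.58.1 (lmFit and eBayes, R 4.3.3) for a mean other than 0, two-sided, and adjusted by Benjamini-Hochberg over all 8295. The steps were tested on simulated data. The members, gene lists and tests were chosen with earlier results of these data known. Named genes are Cyp4d1, every tested Cyp4 gene, P450 genes past the test, the Halloween genes, the 6 P450 genes with the largest means in each direction and related genes past the test; others are named beside them as values. Alternatives changed the zeros, repeat arrays, centring, scaling, dye term, weights, missing values, probe averaging, moderation, thresholds, direction and pairs included.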

Additional observations from a re-analysis of the deposited data

Results flagged for a closer look

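In 5 of 51 sets of pair values examined, 1 pair lay far from the others by Dixon's test, where chance gives about 1 in 20, or 2.55. Cyp4e2 was at 2.39 in pair 3, with -0.54 as the nearest value. Cyp4p3 was at 0.99 in pair 4, with -0.19 as the nearest of 4 values. Among genes named beside the P450 genes, the ecdysone cascade gene Hr3 was at -0.75 in pair 4 (nearest -0.48), and the oenocyte markers Desat1 at -0.50 in pair 4 (nearest -1.35) and svp at -1.49 in pair 6 (nearest -0.93).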

How the results depend on the processing

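The count of called P450 genes, 7 of 33, was 2 with exact zeros kept, 2 with array a only, 4 with array b of pairs 1, 4 and 5, 4 with a dye term, 2 where a size of at least 1 was also required, and 3 to 6 when 1 pair was left out (4 for pair 1 or pair 3, 3 for pair 4). It was 8 (2 higher, 6 lower) with all arrays in the fit and pair as random block, 9 (3 and 6) with array weights, 6 (3 and 3) with arrays centred and scaled, and 10 at an adjusted p below 0.1. The share called over all features also moved. It was 2.50% with exact zeros kept (2.30% of 87 P450 genes) and 6.06% with array a only (7.41% of 27). With array b of pairs 1, 4 and 5 it was 17.6% (14.3% of 28 P450 genes). A dye term gave 13.4% (12.1% of 33) and array weights gave 23.9% (27.3% of 33). Without 1 pair it ran from 7.07% to 14.7%, against 9.09% to 17.6% of P450 genes. The count of called related genes, 11, was 2 with zeros kept, 3 with array a only, 18 with the random block, 6 with a dye term, 6 with trend and robust moderation, and 2 to 8 without 1 pair. The median of the P450 genes, -0.06, ran from -0.14 without pair 3 to 0.12 in the Cy5 over Cy3 reading (0.09 with array a only, the highest of the others), less than the spread between pairs. Cyp4d1 kept its call in 17 of 18 alternatives and Cyp4p2 in 16. The Cy5 over Cy3 reading, in which shifts of 1 sign cancel, is among the alternatives that ended each call. With exact zeros kept Cyp4d1 was at 1.46, since its second probe then entered as 0 on 7 of 8 arrays. That setting also put all 13819 features in the fit. Genes measured on every array, such as Cyp12d1-p and sad, lost their calls there with unchanged means. The cause of the other changes was not tested.

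Read as Cy5 over Cy3 on every array, limma called 0 of 8295 features, 0 P450 genes and 0 related genes. Under that reading Cyp4d1 was at -0.53, sad at -0.34, Cyp12d1-p at 0.47, Cyp6a2 at 0.40, Cyp313b1 at 0.25, Cyp4p2 at 0.14 and Cyp4d14 at 0.13, each with an adjusted p of 0.999 in limma. The related genes were at -0.98 (sro), -0.30 (Urod), -0.25 (ImpL2), -0.16 (Fdx2), -0.13 (maf-S), -0.0756 (Ugt49C1), 0.0816 (Hr3), 0.10 (Pbgs) and 0.41 (Ugt35A1), and the markers at -0.16 (pyd), -0.0798 (crb), 0.0830 (Desat1), 0.33 (svp) and 0.53 (salm). Each ratio already pairs a mutant with a control sample within an array, so no further block by pair number was fitted to the pair means.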

Other observations

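Some P450 genes measured too rarely for a test had single values far from 0. Cyp311a1, of the CYP4 clan, was at 2.56 on the 1 array that measured it, and Cyp305a1, of the CYP2 clan, at 2.29 on 1 array. Cyp4ac1 ran from -0.11 to 1.28 over 3 pairs, and Cyp6d2 was at -1.05 and -0.72 in 2 pairs. Cyp303a1, needed for sensory bristles, was at -0.46 and -0.32 in 2 pairs, and Cyp6t3, reported in ecdysone supply, at -0.73 and 0.26. These values have no replicate check or a partial one. By chromosome arm, 12 of the 15 tested P450 genes on 2R had means below 0, with a median of -0.27 (-0.06 over all tested features there), and 3 of the 15 fell. Of all 1457 features tested on 2R, 820 had means below 0 and 322 (22.1%) were called, 198 of them lower, so the P450 calls there were near that background. On 2L, 0 of 4 tested P450 genes were called by limma, with 2 at an unadjusted p below 0.05. Cyp6a16Psi, named as a pseudogene, was measured on all 8 arrays, at 0.40 ± 1.02 (SD, n = 5 pairs, limma adjusted p = 0.432) with 2.06 in pair 3.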
